A study of Homo sapiens with 12 samples.

Results

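Glycolysis and hypoxia genes were described in HL-60 cells with a gain and with a loss of JMJD3. HL-60 is a human promyelocytic leukaemia line able to mature into neutrophil-like or monocyte-like cells. JMJD3, the product of KDM6B, removes methyl groups that silence genes from a lysine of histone H3. The set held 36 genes, taken by gene symbol from both expression tables, which list 60660 and 60662 genes. Of these, 18 encode enzymes of glycolysis and 18 encode transporters, fuel regulators and other products of genes known to respond to hypoxia.

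Glycolysis splits glucose into pyruvate in the cytosol, and lactate dehydrogenase turns pyruvate into lactate. Hypoxia-inducible factor (HIF) is a pair of an alpha and a beta subunit that binds DNA at a short core, A or G followed by CGTG. When oxygen is plentiful the alpha subunit is hydroxylated by EGLN enzymes and destroyed after binding VHL. HIF is known to raise transcription of most glycolytic enzymes, of glucose transporters and of genes for blood vessel growth and mitochondrial removal. Leukaemia cells and neutrophils are both known for a high use of glucose.

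RNA from bulk cells was sequenced in 4 groups of 3 libraries. Cells carrying a JMJD3-expression vector by transduction were set against cells carrying a control vector. HL-60 cells with a JMJD3 knockout were set against parental HL-60 cells. The promoter of the vector, the edited site and the number of knockout clones are not given in the sources used here, and no hypoxic treatment is described. Whether the replicates are separate cultures is not stated, and the p-values cover only the spread among these libraries, possibly technical.

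KDM6B was at 98.0, 99.5 and 83.9 CPM (counts scaled to library size with TMM factors) in the JMJD3-transduced libraries and at 35.2, 34.8 and 24.7 CPM in the control vector libraries. Knockout libraries had 37.2, 45.2 and 36.9 CPM of it, against 56.6, 56.6 and 59.0 CPM in parental libraries. The log2 fold changes were 1.57 ± 0.148 and -0.53 ± 0.070. In CPM the groups did not overlap in either comparison, and KDM6B transcript remained in cells labelled as knockout, which says nothing of the protein. In FPKM they overlapped: knockout libraries had 6.31, 11.4 and 6.14 FPKM, against 11.001, 11.014 and 10.4 FPKM in parental libraries, so that knockout replicate 2 lay above every parental library. On limma fits of FPKM the knockout difference of KDM6B was not called (adjusted p from 0.138 to 0.331). Libraries held 26861304 to 43647715 counts. Replicates 1 and 2 of JMJD3-transduced cells, and those of control vector cells, were nearly alike, with a chi-square per gene of 1.68 and 1.93 where counting noise alone gives about 1. Replicate 3 stood 30.5 to 38.6 from them on this scale.

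The 7 listed genes of maturing myeloid cells moved strongly in 1 comparison. Their summed level was 1212 to 1282 CPM in JMJD3-transduced libraries against 56.3 to 62.4 CPM with the control vector, and all 6 that were tested rose. Of these FPR1, with 178 counts against 12, passed the filter on low counts only through JMJD3-transduced libraries. In knockout libraries the sum was 84.0 to 88.5 CPM against 89.2 to 103.1 CPM in parental libraries. Of 6 listed promyelocyte genes 5 were tested, and 4 of them fell in JMJD3-transduced cells, with a sum of 8233 to 9173 CPM against 16210 to 20405 CPM. In knockout cells 3 of the 5 fell and 1 rose, with a sum of 9094 to 9808 CPM against 10911 to 11373 CPM in parental cells. Over all genes tested, 26.4% were called higher and 23.9% lower in JMJD3-transduced cells, and 17.6% higher and 20.2% lower in knockout cells. MPO, the abundant enzyme of primary granules, was at 8082 to 8982 CPM against 15410 to 19293 CPM with the control vector, while ELANE was at 0.158 CPM or less in every library. Erythroid and epithelial markers summed to 0.599 CPM or less in every library, T cell and fibroblast markers to 11.7 CPM or less and B cell markers to 20.2 CPM or less. Some of these low sums differed between groups. B cell markers summed to 19.0 to 20.2 CPM in knockout against 7.80 to 9.38 CPM in parental libraries, where MS4A1 was at 0 throughout, and T cell markers to 1.02 to 1.797 CPM against 0.352 to 0.680 CPM. COL1A1 was at 4.17, 4.26 and 3.42 CPM in JMJD3-transduced libraries against 0.434, 0.405 and 0.599 CPM with the control vector, with COL1A2 at 0 throughout. In bulk RNA, fewer cells of a type and less RNA per cell cannot be told apart. The part of these marker shifts in the results on glycolysis and hypoxia genes was not tested.

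The DNA ahead of these genes differs even between isoenzymes that catalyse the same step. RefSeq promoter windows (GRCh38.p14, the 250 bases ahead of an annotated start) were at hand for 31 of the 36 genes. They were not at hand for PFKFB2, VEGFA, SLC2A3, NDRG1 and BNIP3L. Isoenzymes of hexokinase and lactate dehydrogenase and PGK1 are shown here, HK2 with HK3 and LDHA with LDHB as pairs that share a step and PGK1 as a gene with several cores, and each sequence stops where an annotated exon begins. Capitals mark the HIF core ACGTG or GCGTG, read on either strand, so that CACGT and CACGC are the same cores on the other strand. HK2 lies on the plus strand at chr2:74834920-74835169, HK3 on the minus strand at chr5:176899347-176899596, LDHA on the plus strand at chr11:18394313-18394387, LDHB on the minus strand at chr12:21657972-21658092 and PGK1 on the plus strand at chrX:78103998-78104173.
HK2: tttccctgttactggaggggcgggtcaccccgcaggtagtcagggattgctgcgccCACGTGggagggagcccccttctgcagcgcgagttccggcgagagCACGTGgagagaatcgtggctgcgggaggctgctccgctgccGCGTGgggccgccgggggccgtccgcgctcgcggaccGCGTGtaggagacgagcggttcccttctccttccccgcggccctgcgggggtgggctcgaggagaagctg
HK3: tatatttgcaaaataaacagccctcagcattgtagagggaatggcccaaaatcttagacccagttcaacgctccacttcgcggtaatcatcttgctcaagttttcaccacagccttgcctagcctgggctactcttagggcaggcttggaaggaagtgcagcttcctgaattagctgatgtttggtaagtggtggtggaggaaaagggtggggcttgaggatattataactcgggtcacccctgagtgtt
LDHA: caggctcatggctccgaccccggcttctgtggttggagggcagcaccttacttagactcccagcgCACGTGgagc
LDHB: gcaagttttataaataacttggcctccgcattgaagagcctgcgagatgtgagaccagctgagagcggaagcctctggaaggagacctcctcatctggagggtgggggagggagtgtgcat
PGK1: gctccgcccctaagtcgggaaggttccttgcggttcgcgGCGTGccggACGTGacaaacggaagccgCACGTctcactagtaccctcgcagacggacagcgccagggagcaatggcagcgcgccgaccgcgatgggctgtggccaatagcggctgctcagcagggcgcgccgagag

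HK2 carried 6 overlapping or separate cores in the window shown, 2 of the sites being the palindrome CACGTG, which holds ACGTG on both strands and is also the E-box bound by MYC. The other HK2 window, chr2:74833877-74834126, held 3 cores and 0 CACGTG. HK3 carried 0 cores, but the bases just after this HK3 start were not found in an annotated HK3 transcript. LDHA carried 5 cores in its full window, of which 2 stand in the stretch shown. The other LDHA window held 1 core, and LDHB carried 0. PGK1 carried 3. Of the 31 genes, 25 (80.6%) had a core in at least 1 window, against 47.4% of all 27305 genes in the table. Counted by window, 33 of 58 (56.9%) held one, against 43.2% of 35116. CACGTG was in at least 1 window of 8 of the 31 genes (25.8%), against 7.73% of all genes. A core was held by 14 of 18 glycolytic enzymes (77.8%) and by 11 of the other 13 genes (84.6%). HK3, LDHB, PGAM1, PKM, SLC2A1 and EGLN3 were the 6 genes without one. A match is only a description of these letters, and genes with more annotated starts have more windows.

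Levels between genes are compared as FPKM, which divides by transcript length. Glycolytic enzymes were the abundant members in all groups. GAPDH, the dehydrogenase at the middle of the pathway, was first of the 36 everywhere, at 3736 ± 280 FPKM in JMJD3-transduced, 4914 ± 499 in control vector, 3674 ± 150 in knockout and 3351 ± 136 in parental cells (mean ± SD, n = 3). ENO1 and ALDOA came next in every group. In control vector cells they were at 1959 ± 52.4 and 1935 ± 151 FPKM and did not differ beyond their spread, nor did LDHB (1229 ± 98.6) and LDHA (1175 ± 174). At the other end CA9, a carbonic anhydrase that is a standard marker of hypoxia, had 0 counts in all 12 libraries, where a count of 0 over a group allows up to 3 counts. EGLN3, an oxygen-sensing hydroxylase, had 2 counts in JMJD3-transduced, 0 in control vector, 0 in knockout and 1 in parental cells.

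**Figure D1:**
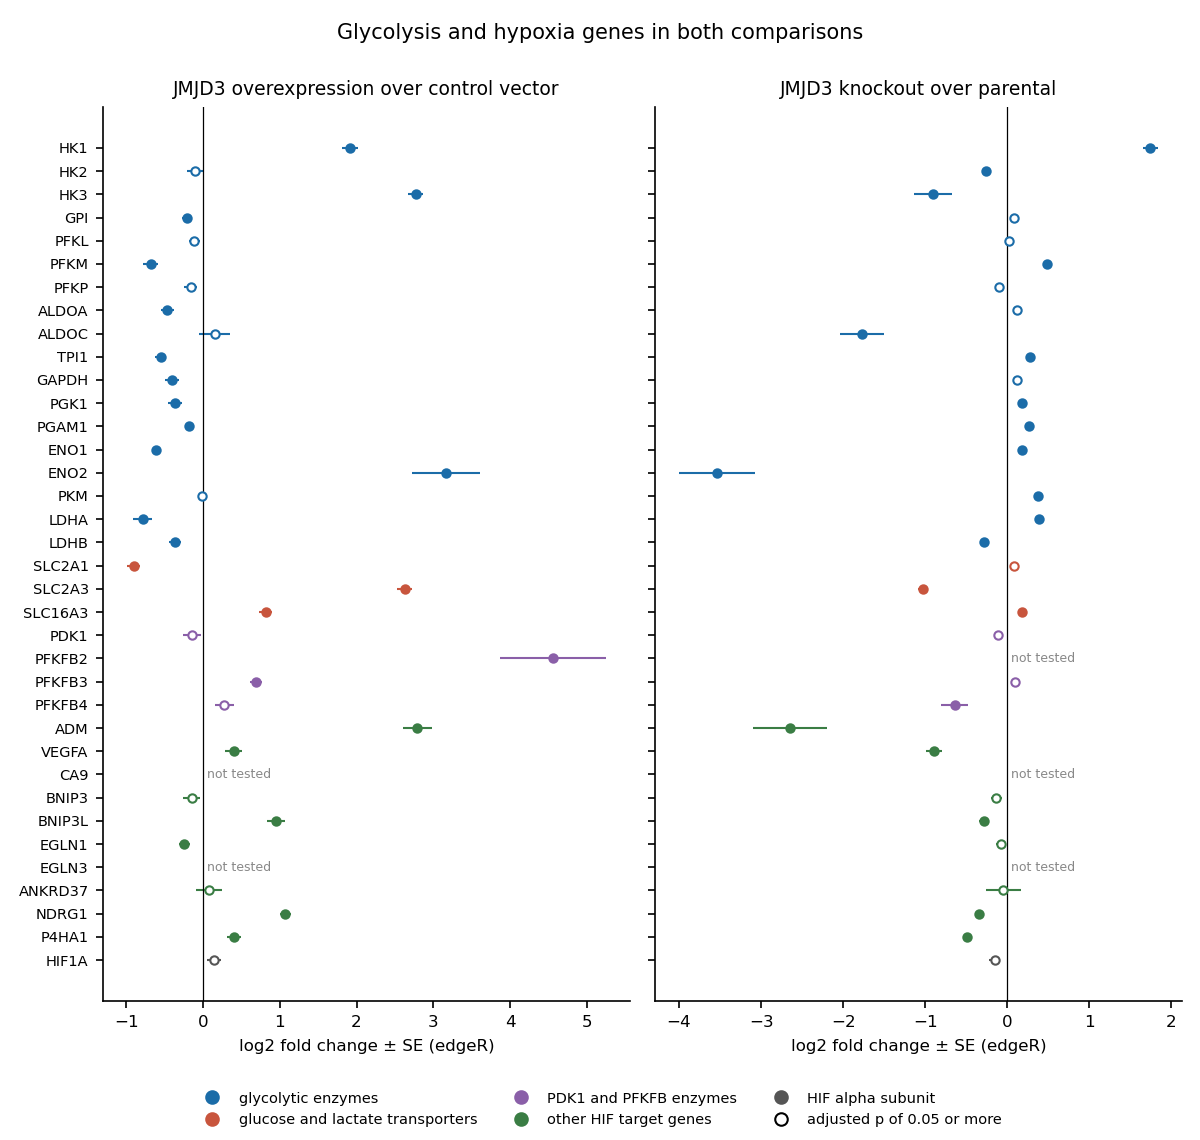
Log2 fold change (x axis) of each of the 36 genes (rows) in JMJD3-transduced over control vector cells (left) and JMJD3 knockout over parental cells (right), from edgeR; points are estimates, bars the standard error (n = 3 against 3), open points had an adjusted p of 0.05 or more. HK1 lies far to the right in both panels, at 1.91 and 1.74, while SLC2A3, HK3, ENO2 and ADM lie right in the left panel and left in the right panel. ENO2 in both panels, PFKFB2 in the left and ADM in the right passed the filter on low counts through 1 group only.

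Most glycolytic enzymes were lower in JMJD3-transduced cells, and 3 isoenzymes that are scarce in control vector cells were higher. Of the 18 enzymes, all tested, 10 fell, 3 rose and 5 were not called. The median log2 fold change was -0.19, against -0.003 over all genes. ENO2 passed the filter on low counts only through JMJD3-transduced libraries, and without it 10 of 17 fell and 2 rose, with a median of -0.21. In the same fit 50.3% of 14322 genes were called, 26.4% higher and 23.9% lower, and the count of falls stands above that background while the count of rises does not. The 18 together took 1.459% to 1.465% of all counts in JMJD3-transduced libraries and 1.709% to 1.749% in control vector libraries. Calls throughout are from edgeR's quasi-likelihood test with Benjamini-Hochberg adjustment over all genes tested, at an adjusted p under 0.05.

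Enzymes from aldolase to lactate dehydrogenase supplied most of the falls. LDHA, the lactate dehydrogenase subunit that favours lactate production (chromosome 11, 18394388 to 18408425, plus strand), was at 674.0, 675.5 and 812.5 CPM in JMJD3-transduced libraries and at 1146, 1142 and 1443 CPM in control vector libraries. Replicate 3 was the high library in both groups, and the groups did not overlap. The log2 fold change was -0.79 ± 0.118 (SE, adjusted p 0.00116 by edgeR). ENO1, the main enolase, was at 1889, 1896 and 1955 CPM against 2950, 2914 and 2909 CPM with the control vector, a log2 fold change of -0.61 ± 0.051 (edgeR adjusted p 6.83e-05). All 3 JMJD3-transduced libraries lay well below the others. TPI1, which interconverts the triose phosphates, was at 742.8, 736.2 and 674.5 CPM against 1056, 1105 and 998.3 CPM, and fell by 0.55 on the log2 scale (edgeR adjusted p 0.000459). Aldolase ALDOA was at 1310, 1292 and 1227 CPM against 1877, 1868 and 1544 CPM, a log2 fold change of -0.47 ± 0.086 (edgeR adjusted p 0.00319). GAPDH fell by 0.40 ± 0.089, PGK1, the first ATP-making step, by 0.36 ± 0.093 and the other lactate dehydrogenase subunit LDHB by 0.37 ± 0.080. GAPDH overlaps an antisense gene whose counts were 1.32% of its own.

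The smallest of these falls were the least stable. GPI, the isomerase that follows hexokinase, fell by 0.21 ± 0.063 (edgeR adjusted p 0.0247) and PGAM1, the phosphoglycerate mutase, by 0.18 ± 0.055 (0.031). Both calls were lost when replicate 1 or 2 of either group was left out, with adjusted p from 0.0853 to 0.0909 for GPI and from 0.0837 to 0.119 for PGAM1. The PGK1 call was lost without JMJD3-transduced replicate 1 (0.0524) or 2 (0.0514). With replicates 1 and 2 summed into 1 library, GPI, PGAM1, PGK1, GAPDH and LDHB were not called (adjusted p from 0.0663 to 0.252), and 5 enzymes fell. Scaling by library totals alone left 6 enzymes lower. It moved the median log2 fold change of all genes to 0.14, and the split of calls over all genes to 4788 higher and 2202 lower, against 3786 and 3421 in the fit used here.

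Phosphofructokinase commits sugar to glycolysis, and 1 of its 3 isoenzymes was called. PFKM, the muscle form, was at 48.9, 50.1 and 57.7 CPM in JMJD3-transduced libraries and at 78.7, 82.5 and 90.5 CPM in control vector libraries. The groups were apart, with a log2 fold change of -0.68 ± 0.093 (edgeR adjusted p 0.000724). PFKM shares 628 exonic bases with SENP1 on the other strand, whose counts were 68.9% of those of PFKM. The kit is taken not to mark strand. The liver form PFKL (-0.11 ± 0.075) and the platelet form PFKP (-0.16 ± 0.087) were not called (edgeR adjusted p 0.257 and 0.168), but both were called lower under a block for replicate number (0.000967 and 4.52e-05). That block called 5215 of all genes higher and 5274 lower, against 3786 and 3421 without it. PFKP was also called without control vector replicate 3 (0.0379). PKM, which makes pyruvate, was at 1816, 1800 and 1831 CPM against 1853, 1847 and 1808 CPM with the control vector, and the groups overlapped (-0.02 ± 0.051). Its sign turned to 0.071 under upper-quartile scaling and to 0.13 with library totals alone. ALDOC, a second aldolase, was at 5.62 to 8.78 CPM against 5.69 to 7.65 CPM and was not called.

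Transcripts of hexokinase, the enzyme that traps glucose in the cell, changed in make-up. HK3, an isoenzyme known from myeloid cells (chromosome 5, 176880869 to 176899332, minus strand), was at 38.3, 36.2 and 34.5 CPM in JMJD3-transduced libraries and at 4.77, 5.53 and 5.61 CPM in control vector libraries. That is 6.82-fold higher (log2 fold change 2.77 ± 0.099, edgeR adjusted p 2.14e-06). HK1, the broadly expressed form (chromosome 10, 69269984 to 69401884, plus strand), was at 19.4, 22.0 and 21.3 CPM against 5.88, 5.06 and 5.75 CPM. It was 3.76-fold higher (1.91 ± 0.102, edgeR adjusted p 8.46e-06). The highest control vector library lay far below the lowest JMJD3-transduced one for both. HK2, the form most tied to HIF, was at 150.2, 151.4 and 182.8 CPM against 159.3, 166.0 and 193.1 CPM and was not called (-0.10 ± 0.109, edgeR adjusted p 0.487). With the replicate block it was called lower (0.00405). Its sign turned to 0.045 with library totals alone and to 0.0028 without control vector replicate 3.

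Per length, HK2 still led the family. It held 55.0% ± 5.07 of summed hexokinase FPKM in JMJD3-transduced cells and 85.5% ± 2.76 in control vector cells (SD, n = 3 each). HK3 held 24.6% to 37.0% in the JMJD3-transduced libraries, against 5.97% to 11.9% with the control vector. HK1 held 13.3% ± 1.79, against 4.99% ± 0.516. Enolase has a scarce isoenzyme as well. ENO2, the neuronal form, had 218 counts in JMJD3-transduced and 21 in control vector cells, at 1.67, 2.36 and 2.17 CPM against 0.316, 0.0337 and 0.327 CPM. Scaled for library size that is 9.13 times as many (95% counting interval 5.82 to 15.04), and no p is given since only the JMJD3-transduced group carried it past the filter. ENO2 made up 0.0908% of enolase FPKM in JMJD3-transduced cells, against 0.00874% with the control vector.

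**Figure D2:**
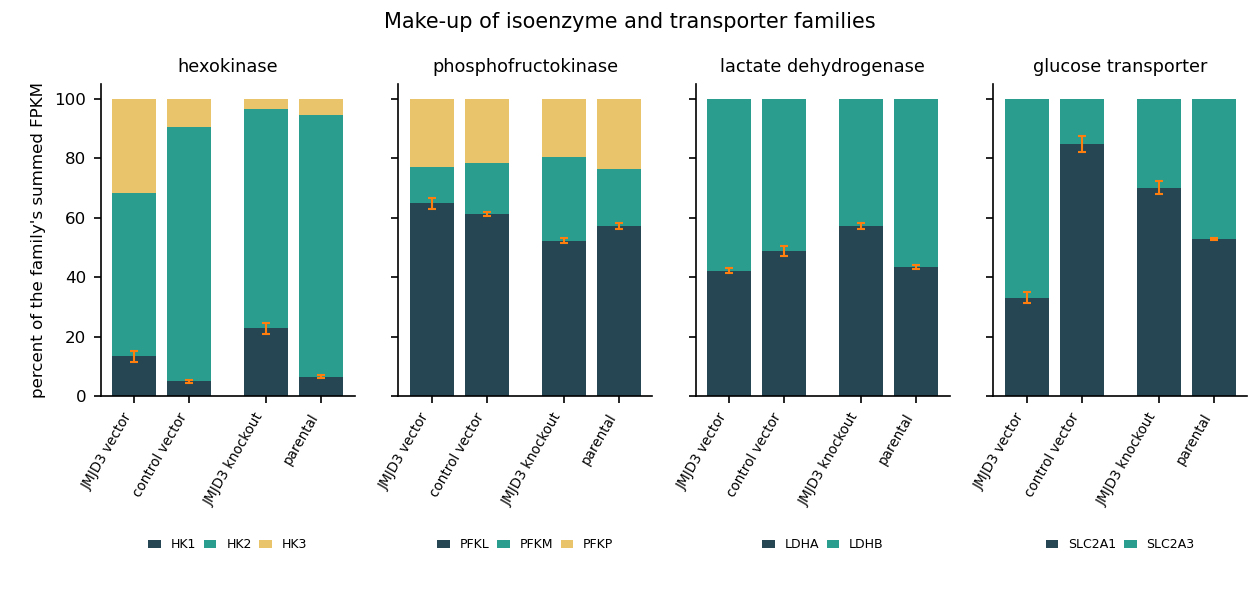
Share of each isoenzyme in its family's summed FPKM (y axis, percent) in JMJD3-transduced, control vector, JMJD3 knockout and parental cells (x axis); bars stack the means of 3 libraries and the orange bars are the SD of the lowest segment. HK2 makes up 55.0% of hexokinase in JMJD3-transduced against 85.5% in control vector cells, and SLC2A3 makes up 66.9% against 15.2% of the pair of glucose transporters.

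The other HIF and fuel genes went mostly upward in JMJD3-transduced cells. Of these 18 genes 16 were tested, of which 9 rose, 2 fell and 5 were not called, with a median log2 fold change of 0.40 against -0.003 over all genes. Over all genes tested 26.4% were called higher and 23.9% lower. PFKFB2 passed the filter only through its level in JMJD3-transduced cells, and without it 8 of 15 rose and 2 fell, with the median again 0.40. The groups did not overlap for 12 of the 16, and for 58.9% of all genes tested. With the replicate block 11 were called higher and 4 lower, as were 5215 and 5274 of all 14322 genes tested.

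Transcripts of the 2 glucose carriers in the set went opposite ways. SLC2A3, the high-affinity transporter GLUT3 (chromosome 12, 7919230 to 7936275, minus strand), was at 243.8, 238.3 and 287.4 CPM in JMJD3-transduced libraries and at 38.2, 42.1 and 44.3 CPM in control vector libraries. It was 6.17-fold higher (log2 fold change 2.63 ± 0.103, edgeR adjusted p 3.19e-06). SLC2A1, the widespread transporter GLUT1, was at 45.8, 51.0 and 50.1 CPM against 94.9, 96.1 and 83.8 CPM, a log2 fold change of -0.90 ± 0.084 (edgeR adjusted p 0.000123). Each JMJD3-transduced library was thus high for the first carrier and low for the second. SLC2A3 made up 65.1% to 68.7% of the pair's FPKM, against 13.4% to 18.5% with the control vector. Pseudogenes of SLC2A3 held 1.22% of its counts. SLC16A3, the lactate exporter MCT4, was at 334.0, 332.7 and 296.4 CPM against 188.8, 192.9 and 165.4 CPM and rose by 0.82 ± 0.087 (edgeR adjusted p 0.000229). It shares 482 exonic bases with CSNK1D on the other strand, whose counts were 50.4% of those of SLC16A3.

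Regulators of fuel use were next. PFKFB enzymes make and remove the sugar bisphosphate that activates phosphofructokinase. PFKFB3, the form with the highest kinase activity, was at 52.1, 52.0 and 58.3 CPM in JMJD3-transduced libraries and at 31.9, 33.2 and 35.2 CPM in control vector libraries (0.69 ± 0.080, edgeR adjusted p 0.000319). The groups were apart. PFKFB2 had 62 counts against 2, or 27.3 times as many once scaled for library size (95% interval of the counting error 7.23 to 230), and overlaps YOD1 by 315 exonic bases on the other strand. YOD1 had 4824 counts in this comparison, against 64 of PFKFB2. PFKFB4 (0.28 ± 0.120) was not called (edgeR adjusted p 0.0895), but was called with the replicate block (0.0496), with upper-quartile scaling (0.0372) and with library totals (0.0191). PDK1, which holds back pyruvate entry into mitochondria, was not called (-0.14 ± 0.112, edgeR adjusted p 0.329). With the block it was called lower (0.000906), and with library totals its sign turned to 0.0010.

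Among the remaining HIF targets, ADM rose most. ADM, the vessel-dilating peptide adrenomedullin (chromosome 11, 10304680 to 10307397, plus strand), was at 6.22, 6.80 and 5.35 CPM in JMJD3-transduced libraries and at 1.14, 0.776 and 0.763 CPM in control vector libraries. It was 6.92-fold higher (log2 fold change 2.79 ± 0.191, edgeR adjusted p 3.14e-05), from a low level. NDRG1, a stress-response protein, was at 92.3, 92.1 and 91.5 CPM against 45.5, 44.1 and 41.6 CPM (1.07 ± 0.068, edgeR adjusted p 1.93e-05). BNIP3L, a receptor for the removal of mitochondria, was at 54.9, 55.3 and 65.0 CPM against 27.1, 29.02 and 34.3 CPM (0.95 ± 0.113, edgeR adjusted p 0.000397). Both sets of libraries lay apart. Its relative BNIP3 was not called (-0.15 ± 0.110) except with the replicate block, where it was lower (0.0172). P4HA1, a collagen prolyl hydroxylase subunit, rose by 0.40 ± 0.085 (edgeR adjusted p 0.00571), a call lost with replicates 1 and 2 summed (0.064) and with limma on unfiltered FPKM (0.0628).

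VEGFA, the vessel growth factor, was at 103.4, 99.9 and 87.8 CPM in JMJD3-transduced libraries against 79.6, 78.6 and 62.4 CPM with the control vector. The groups did not overlap, with a log2 fold change of 0.40 ± 0.114 (edgeR adjusted p 0.0208). That call was lost without JMJD3-transduced replicate 1 (0.0717) or 2 (0.068), and with replicates 1 and 2 summed (0.103). EGLN1, the main oxygen-sensing hydroxylase, fell by 0.24 ± 0.070 (edgeR adjusted p 0.0219). Its call was lost without control vector replicate 1 (0.0856) or JMJD3-transduced replicate 1 (0.0957) or 2 (0.0751), among 10 of 18 alternatives in all. HIF1A itself was at 43.5, 46.3 and 50.9 CPM against 38.7, 42.5 and 45.9 CPM, overlapping, and was not called (0.15 ± 0.093, edgeR adjusted p 0.23). With the block it was called higher (0.00163), as it was with library totals (0.0481). HIF alpha is controlled mainly as a protein, which was not measured. ANKRD37, an ankyrin-repeat protein, was at 1.37 to 1.67 CPM against 1.36 to 1.55 CPM and was not called. It shares 909 exonic bases with UFSP2 on the other strand, which had 2663 counts in this comparison, against 297 of ANKRD37.

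**Figure D3:**
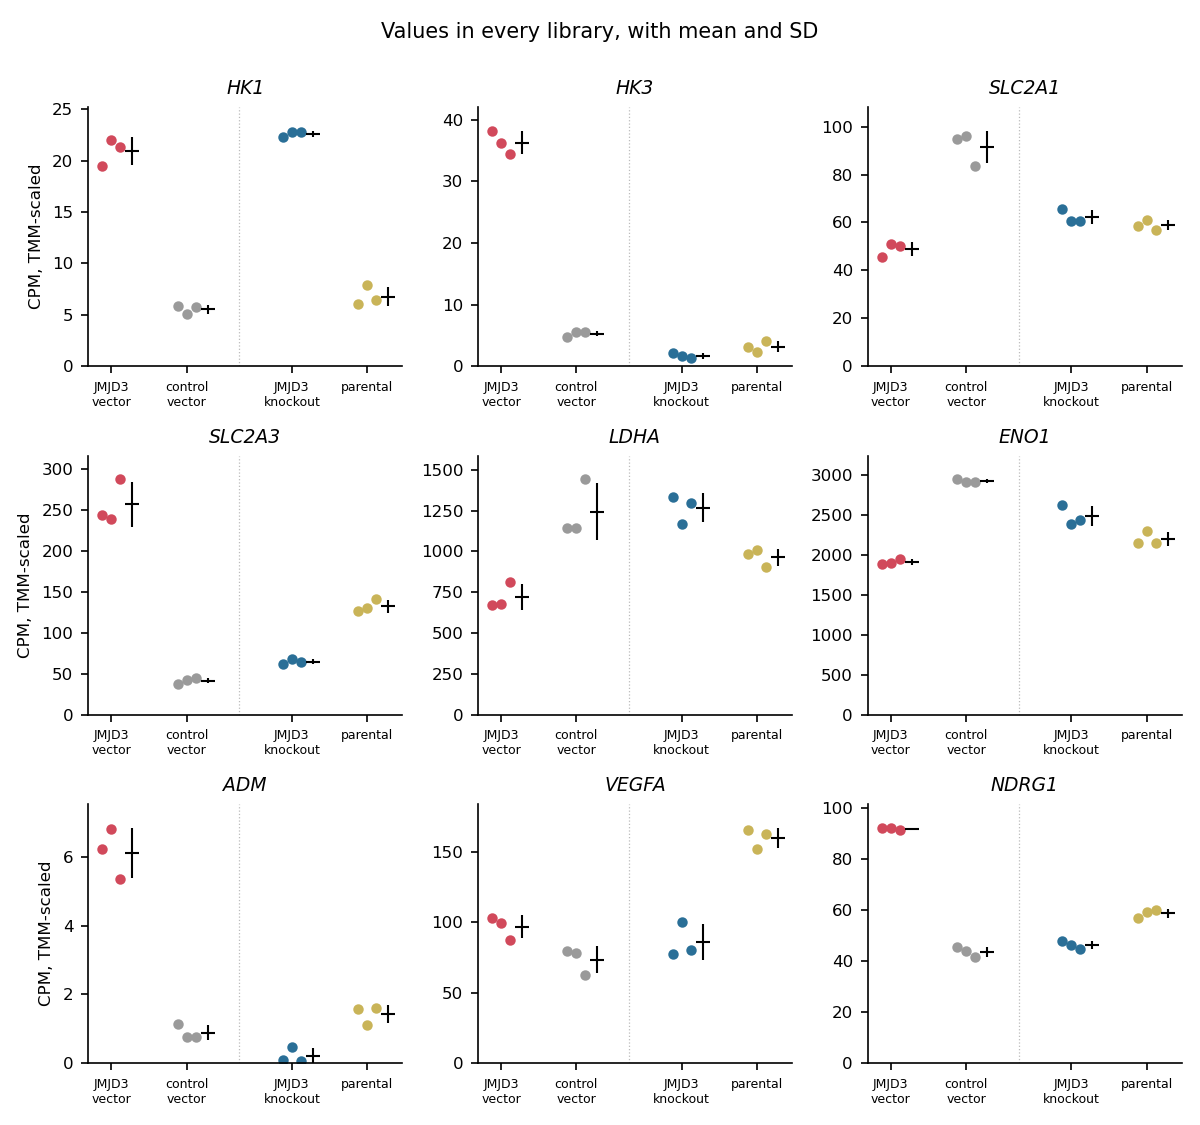
TMM-scaled CPM (y axis) of 9 genes in each of the 12 libraries; coloured points are libraries, black marks their mean and SD. SLC2A3 stands at 238.3 to 287.4 CPM in JMJD3-transduced against 38.2 to 44.3 CPM in control vector libraries and at 61.5 to 68.1 CPM in knockout against 126.0 to 141.0 CPM in parental libraries, while HK1 is high in both JMJD3-transduced and knockout cells. The pair of tables was scaled separately.

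Glycolytic enzymes moved both ways in JMJD3 knockout cells, most by small amounts. Of the 18 enzymes 8 rose, 5 fell and 5 were not called relative to parental cells, and the median log2 fold change was 0.12 against -0.002 over all genes. ENO2 passed the filter only through parental libraries, and without it 8 of 17 rose and 4 fell, with the median again 0.12. In this fit 37.8% of 14186 genes were called, 17.6% higher and 20.2% lower. The count of rises stands above that background. The 18 enzymes took 1.533% to 1.622% of all counts in knockout libraries and 1.383% to 1.483% in parental libraries. With limma on log2(FPKM + 0.1) the log2 fold change of PFKM was 0.74, against 0.48 from counts, and that of LDHA 0.51, against 0.39.

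LDHA was at 1336, 1167 and 1296 CPM in knockout libraries and at 982.0, 1006 and 906.3 CPM in parental libraries, a log2 fold change of 0.39 ± 0.055 (edgeR adjusted p 3.57e-05). PKM was at 1827, 1663 and 1675 CPM against 1273, 1388 and 1318 CPM (0.38 ± 0.049, edgeR adjusted p 1.5e-05). PFKM was at 110.3, 117.9 and 114.4 CPM against 80.0, 80.5 and 84.8 CPM (0.48 ± 0.046, edgeR adjusted p 4.43e-07). In all 3 genes every knockout library lay above every parental one. Counts of SENP1, which shares exonic bases with PFKM, were 45.4% of those of PFKM in this comparison. TPI1 rose by 0.28 ± 0.049, PGAM1 by 0.27 ± 0.053, PGK1 by 0.19 ± 0.051 and ENO1 by 0.17 ± 0.048. The ENO1 call (edgeR adjusted p 0.0087) was lost without parental replicate 1 (0.0597) or knockout replicate 1 (0.0545), and with limma on unfiltered FPKM (0.0888). ALDOA (0.12 ± 0.048) and GAPDH (0.12 ± 0.046) were not called (edgeR adjusted p 0.0552 and 0.0586), but both were called without parental replicate 2 (0.0159 and 0.0126), without knockout replicate 2 (0.0182 and 0.0484) and by DESeq2 (0.0334 and 0.0264). GPI (0.08 ± 0.049) was called only without knockout replicate 2 (0.0329), and PFKL (0.02 ± 0.041) and PFKP (-0.10 ± 0.045) in none of the 16 alternatives.

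The isoenzymes that fell were mostly scarce ones. ENO2 had 7 counts in knockout and 108 in parental cells, at 0.0343, 0.0589 and 0.140 CPM against 0.811, 0.918 and 1.04 CPM. Scaled for library size, parental cells had 12.2 times as many (95% counting interval 5.72 to 31.0), and no p is given since only the parental group carried it past the filter. ALDOC was at 6.15, 3.03 and 3.48 CPM against 11.9, 15.1 and 15.8 CPM and was 3.41-fold lower (-1.77 ± 0.267, edgeR adjusted p 0.0029). HK3 was at 2.20, 1.65 and 1.30 CPM against 3.14, 2.32 and 4.10 CPM (-0.90 ± 0.233, edgeR adjusted p 0.00634). Its groups were close, and it was not called on FPKM (adjusted p 0.202 to 0.416, limma). LDHB, at 1039, 965.4 and 1019 CPM against 1239, 1285 and 1171 CPM, fell by 0.29 ± 0.047 (edgeR adjusted p 0.000131). With LDHA up and LDHB down, LDHA made up 57.2% ± 1.06 of their FPKM in knockout cells and 43.4% ± 0.709 in parental cells (SD, n = 3 each).

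HK1 was at 22.3, 22.8 and 22.8 CPM in knockout libraries and at 6.06, 7.86 and 6.42 CPM in parental libraries. It was 3.35-fold higher (1.74 ± 0.095, edgeR adjusted p 5.5e-10), while HK2, at 136.7, 136.9 and 139.2 CPM against 168.9, 161.3 and 164.4 CPM, fell by 0.26 ± 0.041 (edgeR adjusted p 0.000102). HK1 then held 22.8% ± 1.91 of hexokinase FPKM, against 6.49% ± 0.601 in parental cells, and HK2 held 73.8% ± 2.31 against 88.0% ± 2.14. PFKM held 28.1% ± 1.98 of phosphofructokinase FPKM in knockout cells, against 19.0% ± 0.985 in parental cells.

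Among other HIF and fuel genes in knockout cells, the calls were lower except for SLC16A3. Of the 18 genes 15 were tested, of which 7 fell, 1 rose and 7 were not called, with a median log2 fold change of -0.15 against -0.002 over all genes. Over all genes tested 20.2% were called lower and 17.6% higher. ADM passed the filter only through parental libraries, and without it 6 of 14 fell and 1 rose, with the median again -0.15. The groups did not overlap for 11 of the 15, and for 48.9% of all genes tested. PFKFB2 had 3 counts in knockout and 14 in parental cells and was not tested.

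SLC2A3 was at 61.5, 68.1 and 64.9 CPM in knockout libraries and at 126.0, 129.8 and 141.0 CPM in parental libraries. It was 2.04-fold lower (-1.03 ± 0.053, edgeR adjusted p 2.97e-10) and held 29.9% ± 2.10 of the pair's FPKM against 47.1% ± 0.272. SLC2A1 was not called (0.08 ± 0.052, edgeR adjusted p 0.221), at 60.6 to 65.8 CPM against 56.9 to 61.0 CPM. SLC16A3 rose by 0.18 ± 0.044 (edgeR adjusted p 0.00413), with counts of the overlapping CSNK1D at 55.9% of its own. PFKFB4 fell by 0.64 ± 0.168 (edgeR adjusted p 0.00649), while PFKFB3 (0.10 ± 0.055) and PDK1 (-0.11 ± 0.052) were not called. On filtered FPKM with limma PFKFB3 was called higher (adjusted p 0.0445 and 0.0447), and on FPKM the sign of PDK1 turned to 0.0077 and 0.0078.

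ADM had 21 counts in knockout and 168 in parental cells, at 0.103, 0.471 and 0.0702 CPM against 1.57, 1.12 and 1.61 CPM. The groups were apart. Scaled for library size, parental cells had 6.32 times as many (95% counting interval 4.001 to 10.5), and no p is given since knockout replicate 2 alone of the knockout libraries passed the minimum. Without that replicate the fitted log2 fold change was -3.99, against -2.65 with it. VEGFA was at 77.5, 100.5 and 80.2 CPM against 165.8, 152.3 and 162.6 CPM, 1.86-fold lower (-0.90 ± 0.098, edgeR adjusted p 0.000315). P4HA1 was at 43.1, 38.3 and 42.9 CPM against 57.9, 58.5 and 57.7 CPM (-0.49 ± 0.056, edgeR adjusted p 3.96e-06). NDRG1 was at 47.9, 46.5 and 45.0 CPM against 56.9, 59.1 and 60.2 CPM (-0.34 ± 0.051, edgeR adjusted p 6.48e-05). Every knockout library of these genes lay below every parental one. BNIP3L fell by 0.29 ± 0.057 (edgeR adjusted p 0.000759). On FPKM with limma, PFKFB4, NDRG1 and BNIP3L were not called (adjusted p from 0.0894 to 0.702). BNIP3 (-0.14 ± 0.067), EGLN1 (-0.08 ± 0.056) and ANKRD37 (-0.05 ± 0.214) were not called. The sign of ANKRD37 turned to 0.0032 without parental replicate 2 and to 0.095 without knockout replicate 2. The overlapping UFSP2 had 3570 counts in this comparison, against 356 of ANKRD37. HIF1A was at 31.5, 35.9 and 35.3 CPM against 38.8, 35.9 and 39.5 CPM and was not called (-0.15 ± 0.064, edgeR adjusted p 0.072), but it was called without parental replicate 2 (0.0416).

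Genes called under both gain and loss of JMJD3 went mostly in opposite directions, in this set as among all genes. Of 33 genes tested in both comparisons, 17 were called in both (51.5%), and 14 went opposite ways (82.4% of those called in both, 42.4% of those tested). Without ENO2 and ADM, which passed the filter through 1 group only in a comparison, 15 of 31 were called in both and 12 went opposite ways. Among all 13721 genes tested in both, 3176 were called in both (23.1%), of which 2328 went opposite ways (73.3% of those called in both, 17.0% of those tested). The comparisons share no library. PFKM, TPI1, PGK1, PGAM1, ENO1 and LDHA were lower in JMJD3-transduced and higher in knockout cells. HK3, ENO2, SLC2A3, ADM, VEGFA, BNIP3L, NDRG1 and P4HA1 were higher in JMJD3-transduced and lower in knockout cells. HK1 and SLC16A3 were higher in both, and LDHB was lower in both. The overexpression calls of PGK1, PGAM1, VEGFA, P4HA1 and LDHB were lost in some alternatives. So were the knockout calls of PGAM1, ENO1, HK3, BNIP3L, NDRG1 and SLC16A3. TPI1 (chromosome 12, start 6867119) and ENO2 (start 6913745) lie near each other on the plus strand. Their changes had opposite signs in both comparisons, but ENO2 passed the filter through 1 group only in each.

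Levels in all 4 groups are given side by side, from tables that were scaled separately. SLC2A3 was at 78.4 ± 6.99 FPKM in JMJD3-transduced and 13.0 ± 0.576 in control vector cells, and at 19.4 ± 1.19 in knockout and 38.2 ± 1.88 in parental cells (SD, n = 3). VEGFA was at 56.3 ± 4.98 FPKM in JMJD3-transduced and 41.4 ± 3.32 in control vector cells, and at 42.0 ± 5.20 in knockout and 72.6 ± 4.03 in parental cells. The lowest SLC2A3 level was in control vector cells and the highest VEGFA level in parental cells. No test was made across the tables.

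**Figure D4:**
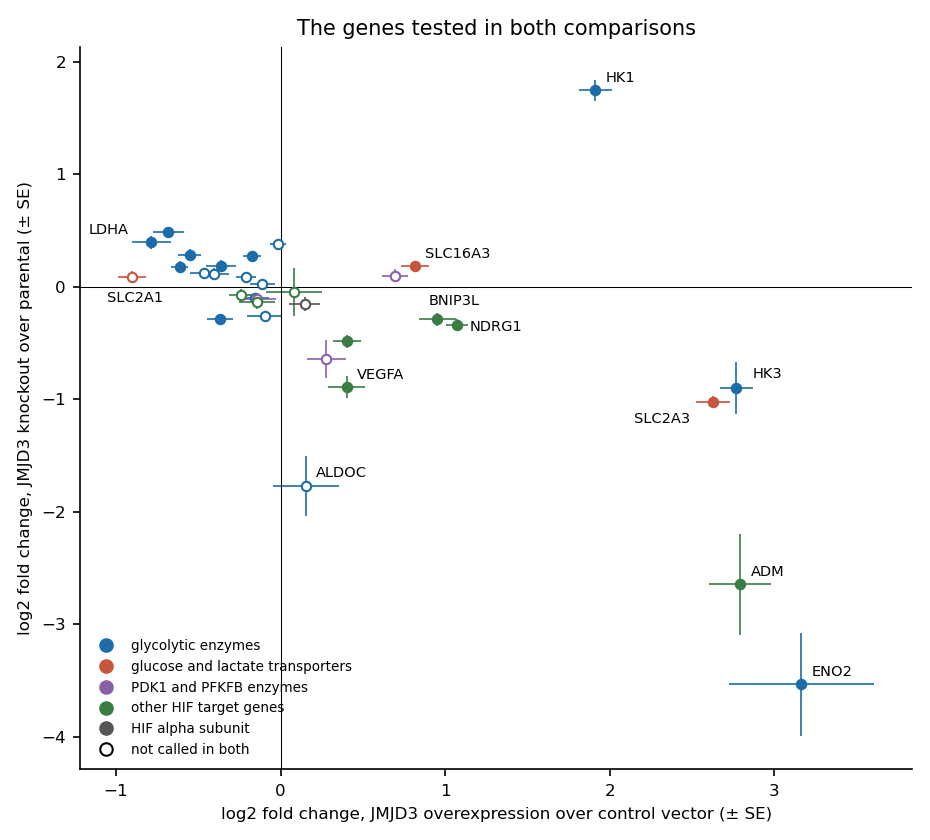
Log2 fold change in JMJD3-transduced over control vector cells (x axis) against that in JMJD3 knockout over parental cells (y axis) for the 33 genes tested in both; bars are standard errors and filled points were called in both. Of the 17 filled points 14 lie at the upper left or lower right, and HK1 lies apart in the upper right. ENO2 and ADM, among the 14, passed the filter on low counts through 1 group only in a comparison.

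Genes around this set gave the following counts. Of 14 listed HIF subunits and regulators 12 were tested in each comparison, and 50.0% of these were called in each, against 50.3% of all genes in JMJD3-transduced and 37.8% in knockout cells. In JMJD3-transduced cells 2 rose, EPAS1, another HIF alpha subunit (167 counts against 32), and HIF1AN, which blocks HIF activity (log2 fold change 0.34 ± 0.109). EPAS1, counted in these shares, passed the filter in that comparison only through JMJD3-transduced libraries, with 0.197 CPM in control vector replicate 1. The same comparison had 4 falls, with the coactivator EP300 (-0.34 ± 0.068), the VHL partner ELOC (-0.30 ± 0.067) and the ubiquitin ligase subunit RBX1 (-0.41 ± 0.124) first by p. In knockout cells ELOB and ELOC rose by 0.28 ± 0.064 and 0.24 ± 0.081, and 4 fell, first CREBBP (-0.29 ± 0.050), VHL (-0.30 ± 0.052) and ARNT, the HIF beta subunit (-0.18 ± 0.045). EPAS1 had 16 counts in knockout and 50 in parental cells (-1.29 ± 0.458).

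Of 27 further HIF targets 20 were tested in each comparison, and in JMJD3-transduced cells 9 rose and 5 fell (70.0% called, against 50.3% of all genes). TGFA, a growth factor (2.78 ± 0.130), HMOX1, which degrades haem (4.30 ± 0.238), and DDIT4, an inhibitor of mTOR (1.47 ± 0.109), rose with the smallest p. FAM162A (-0.62 ± 0.081), ZNF395 (-0.44 ± 0.070) and the transferrin receptor TFRC (-0.66 ± 0.152) fell. In knockout cells 3 rose and 6 fell (45.0% called, against 37.8% of all genes). Higher were the glycogen branching enzyme GBE1 (0.28 ± 0.044), TFRC (0.96 ± 0.110) and the cytokine MIF (0.19 ± 0.050). DDIT4 (-1.09 ± 0.090), RAB20 (-0.55 ± 0.094) and the histone demethylase KDM4B (-0.27 ± 0.053) led the falls.

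Of 33 further glycolysis and pyruvate genes 22 were tested in JMJD3-transduced cells, of which 5 rose and 7 fell (54.5% called, near the 50.3% of all genes). The third enolase ENO3 rose by 2.22 ± 0.132 and TIGAR, which removes the same activating sugar bisphosphate, by 1.17 ± 0.146. SLC2A6, a sugar transporter, had 51 counts against 0, so that only JMJD3-transduced libraries carried it past the filter. PGM1 (-0.54 ± 0.063) and 2 subunits of pyruvate dehydrogenase, DLAT (-0.69 ± 0.080) and PDHB (-0.48 ± 0.063), fell. In knockout cells 21 were tested, 6 rose and 3 fell (42.9% called, against 37.8% of all genes). The fructose carrier SLC2A5 (0.53 ± 0.054), FBP1, which runs the phosphofructokinase step in reverse (2.05 ± 0.214), and the phosphatase PDP1 that activates pyruvate dehydrogenase (0.58 ± 0.099) rose. PCK2, the mitochondrial enzyme that makes phosphoenolpyruvate, was at 7.54 ± 2.32 CPM in knockout and 85.3 ± 1.66 CPM in parental cells (-3.48 ± 0.187, edgeR adjusted p 5.54e-05), with ADPGK (-0.16 ± 0.041) and DLD (-0.11 ± 0.042) lower as well.

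In the authors' deposited table the 24 genes called here for JMJD3 overexpression had the same sign, and 21 of them had an adjusted p under 0.05 there. All 21 called for the knockout had the same sign and an adjusted p under 0.05 in the authors' deposited table.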

How the data were processed

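RNA of 12 HL-60 libraries was sequenced after preparation with a TruSeq RNA kit, per the labels' protocols, a kit taken here not to mark strand. CASAVA 1.8, TopHat2 2.0.4, edgeR, RSEM and the build GRCh38 appear in the submitters' processing notes, without saying which of them made a given column. The deposited tables hold expected counts and FPKM per gene and library, with log2 fold changes and p-values of the authors' own comparisons, per the file headers.

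The deposited expected counts were found to carry 1 factor per library (0.772 to 1.197). Dividing it out made 92.9% to 94.1% of values up to 1000 whole within 0.02. The results were rounded to whole numbers. Libraries then held 26861304 to 43647715 counts. The 6 libraries of a comparison were fitted by themselves in edgeR 4.0.16 (R 4.3.3): TMM scaling, a filter on low counts with a minimum of 10, and the quasi-likelihood test, with p-values adjusted by Benjamini-Hochberg over all genes tested. A call is an adjusted p under 0.05, the standard error is the size of the log2 fold change over the square root of F, and CPM are TMM-scaled. Counting intervals are at 95% and cover counting error only. The steps were tested on simulated data. Alternatives used DESeq2 1.42.0, limma 3.58.1 on log2(FPKM + 1) or + 0.1, other scalings, a replicate block, and libraries left out or summed.

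In the overexpression comparison libraries with the same replicate number deviated together (correlations of deviations across genes 0.459, 0.480 and 0.782), so that the numbers were taken to pair the libraries. The pairing comes from this check and not from the labels, and replicates 1 and 2 correlated as well across numbers (0.502 and 0.443). Blocked values stand beside a result where they change a call.

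The genes and lists were chosen with earlier results of these data known. All 36 genes are described, with KDM6B first, and from each further list up to 3 called genes in each direction by smallest p. In the overexpression file, 28 symbols had been turned into dates and 13 lines held no values. Promoter sequences are from RefSeq and gene positions from GENCODE 29. Results on some genes of the further lists are not reported here. Counts without genes that passed the filter through 1 group only were added after seeing the data.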

Additional observations from a re-analysis of the deposited data

How the results depend on the processing

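Of the 24 genes of the set called for JMJD3 overexpression, 15 were called in all 18 alternatives and 9 were lost in some. Of the 21 called for the knockout, 14 were called in all 16 and 7 were lost in some. No called gene changed direction in these alternatives. For overexpression, glycolytic enzymes called lower numbered 6 with library totals and 5 with replicates 1 and 2 summed (10 in the main fit of all 6 libraries). The other genes called lower numbered 1 with upper-quartile scaling, library totals, no filter, the 3 limma fits on FPKM and summed replicates, and 4 with the replicate block, against 2. Over all genes, 2202 were called lower with library totals, 5274 with the replicate block, 1998 with unfiltered FPKM and 1689 with summed replicates, against 3421, and 2371 higher with unfiltered FPKM, against 3786. For the knockout, the other genes called higher numbered 2 with both filtered limma fits on FPKM and 0 with the unfiltered one (limma, 2 at an unadjusted p under 0.05), against 1, and those called lower numbered 4 in all 3 limma fits, against 7. Over all genes the knockout gave 1563, 1568 and 988 lower in the limma fits, against 2860, and 959 higher in the unfiltered one, against 2497. The cause of these changes was not tested.

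Leaving out 1 library at a time gave, for overexpression, 3 to 3 glycolytic enzymes higher and 7 to 11 lower, 8 to 9 other genes higher and 1 to 2 lower, and 3214 to 4071 of all genes higher and 2634 to 3555 lower. For the knockout it gave 7 to 11 glycolytic enzymes higher and 5 to 5 lower, 1 to 1 other gene higher and 7 to 8 lower, and 1992 to 2593 of all genes higher and 2343 to 2720 lower.

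Signs that changed were all of genes not called. For overexpression PKM turned to 0.071 with upper-quartile scaling and 0.13 with library totals, HK2 to 0.045, PFKL to 0.033 and PDK1 to 0.0010 with library totals. HK2 ranged from -0.20 without JMJD3-transduced replicate 3 to 0.0028 without control vector replicate 3. For the knockout ANKRD37 ranged from -0.16 without knockout replicate 3 to 0.095 without knockout replicate 2, with 0.0032 without parental replicate 2, and PDK1 turned to 0.0077 and 0.0078 in the 3 limma fits. Knockout and parental libraries of the same number did not deviate together (0.0270, -0.250 and -0.116). The replicate block there left 8 glycolytic enzymes higher and 5 lower, 1 other gene higher and 7 lower, and 2117 of all genes higher and 2480 lower. With 3 libraries a group, genes at a few counts, such as PFKFB2 and EGLN3, are limited by depth.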

Other observations

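Neighbouring sugar pathways were called in part. Of 7 pentose phosphate genes, all tested, 2 rose and 1 fell in each comparison. These calls made up 42.9% of the list, against 50.3% of all genes in JMJD3-transduced and 37.8% in knockout cells. In the pentose phosphate pathway, which makes NADPH, the dehydrogenase PGD was at 354.1 ± 7.24 CPM in JMJD3-transduced and 298.8 ± 14.1 CPM in control vector cells (SD, n = 3 each), a rise of 0.24 ± 0.064 on the log2 scale. TALDO1, transaldolase, fell by 0.22 ± 0.057 in JMJD3-transduced cells and rose by 0.21 ± 0.048 in knockout cells, where the epimerase RPE fell by 0.20 ± 0.048.

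Of 11 glycogen genes 4 rose and 2 fell in JMJD3-transduced cells, and 1 rose and 3 fell in knockout cells. These calls made up 54.5% and 36.4% of the list, near the shares of all genes (50.3% and 37.8%). GAA, the lysosomal enzyme that degrades glycogen, was at 78.8 ± 9.49 CPM in JMJD3-transduced and 27.7 ± 4.63 CPM in control vector cells (1.51 ± 0.145), and at 9.18 ± 0.371 CPM in knockout and 22.2 ± 1.19 CPM in parental cells (-1.27 ± 0.080). Its libraries did not overlap in either comparison. PYGL, a glycogen phosphorylase (0.61 ± 0.065), and GYG1, which primes glycogen (0.50 ± 0.121), rose in JMJD3-transduced cells, while PGM2 (-0.56 ± 0.095) and glycogen synthase GYS1 (-0.41 ± 0.085) fell. In knockout cells PGM2 rose by 0.14 ± 0.044, and GYG1 (-0.26 ± 0.046) and PYGB, another phosphorylase (-0.15 ± 0.053), fell.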
